A study of Mus musculus with 273 samples.

Results

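The hypothalamus time course comprised 72 of the 273 small RNA libraries of a mouse series on daily variation of microRNAs (miRNAs), and every hypothalamus library was used. The libraries came from wild-type male C57BL/6J mice aged 26 weeks, without any other treatment given in the labels, and each carried its own animal code (72 codes). Tissue was taken every 3 h from 0 to 36 h, which gave 13 time points with 4 to 6 libraries each. Zeitgeber time (ZT) is the time point modulo 24 h, so the 8 ZT groups from ZT0 to ZT21 held 12, 11, 12, 10, 12, 5, 5 and 5 libraries. The labels give no lighting schedule, so ZT is used here only as a time scale. ZT15, ZT18 and ZT21 were each sampled on 1 day only, and the other groups on consecutive days.

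The daily clock of mammals is a feedback loop of transcription factors, paced by the suprachiasmatic nucleus, a small cell group at the base of the hypothalamus. miRNAs are short RNAs cut from hairpin precursors that repress messenger RNAs matched by their seed, bases 2 to 8 of the mature strand. miR-132 and miR-219a are known for their part in the clock of this nucleus, and miR-132 is induced there by light. The libraries held the hypothalamus as a whole, in which that nucleus is a small part.

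The only hairpin that passed the test for a 24 h rhythm was miR-5099 (chromosome 12, 36816205 to 36816278 in GRCm38, plus strand), which overlaps no other gene in the GENCODE vM21 annotation. Its hairpin is shown because the rhythm result rests on it. The sequence is that of RefSeq (GRCm38.p6).

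miR-5099: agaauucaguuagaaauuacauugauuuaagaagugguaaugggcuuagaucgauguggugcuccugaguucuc

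Among 141767 GENCODE transcripts, the longest stretch of this 74-base hairpin found on either strand outside its own entry was 17 bases, in 1 transcript. Against 1004 other hairpins in the RefSeq table the longest shared stretch was 10 bases. Sequences outside these transcripts and hairpins were not searched.

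The mature strands of the clock-linked miRNAs best known from this nucleus are shown next, with the seed in capitals. miR-132 and miR-212 come from 1 locus on chromosome 11 (75173682 to 75173747 and 75173388 to 75173478), within an intron of 1700016P03Rik, and share a seed. miR-219a-5p is made from the hairpin miR-219a-2 (chromosome 2, 29845631 to 29845727) and from a second copy, miR-219a-1.
miR-132-3p: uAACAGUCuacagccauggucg
miR-212-3p: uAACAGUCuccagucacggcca
miR-219a-5p: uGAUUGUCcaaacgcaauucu

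The miR-200 family is shown because miR-141 and miR-200c had, after miR-375, the largest fitted ratios of all tested hairpins. miR-141 and miR-200a share 1 seed and miR-200b and miR-200c another.
miR-141-3p: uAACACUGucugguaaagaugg
miR-200a-3p: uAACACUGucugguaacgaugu
miR-200b-3p: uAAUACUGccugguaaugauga
miR-200c-3p: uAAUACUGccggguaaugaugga

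Total counts ran from 1079380 to 3954710 per library, with a median of 2120502. Of the 1226 hairpins in the table, 289 had no count in hypothalamus, 533 to 673 were detected per library, and 400 were abundant enough to be tested. Levels are given as CPM, counts scaled to library depth. Where a hairpin had no count, the upper limit of 3 counts corresponds to 0.759 to 2.78 CPM, and it covers counting error only. The 5 most abundant hairpins of a library took 49.0% ± 1.22 (SD, n = 72) of its counts. Library total did not follow the time of day detectably (permutation test, two-sided, p = 0.391; 72 libraries). The labels name no run, and the libraries were sorted here into 10 library runs from their numbers and L codes. A run is a stretch of libraries, in order of number over all tissues, that keeps a single L code. What the L code stands for is not stated. A test of run in the same fit called 283 of 400 hairpins (70.8%), so the rhythm test was also made with run as a term. Its values are given below for some hairpins only, and all upper ends come from the fit without run.

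The tissue label was set against marker hairpins. miR-7a-2, miR-7b and miR-375, which are abundant in neurosecretory cells, averaged 94.1, 270.8 and 2704 CPM in hypothalamus on a scale common to all tissues, against 10.4, 39.6 and 117.7 CPM in cortex. The other hairpins of the neuroendocrine list were lower in hypothalamus than in cortex, miR-7a-1 at 58.7 against 66.7 CPM and miR-212 at 813.6 against 1395 CPM. miR-375 rests partly on 2 libraries described below. miR-122, the leading hepatocyte miRNA, averaged 1.96 CPM in hypothalamus and 54535 CPM in liver. The miR-124 and miR-9 copies, which mark neurons, were low in the brain tables (0.161 to 7.34 CPM per copy in hypothalamus), while miR-128-1 stood at 1075 CPM and miR-129-2 at 1718 CPM. How reads that match several copies were counted is not stated, so counts of single copies are uncertain.

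miR-5099 differed in mean level between the ZT groups. Its level averaged 63.1 ± 12.8 CPM at ZT0 (SD, n = 12), 88.1 ± 19.5 at ZT3 (n = 11), 97.8 ± 14.9 at ZT6 (n = 12), 95.7 ± 12.9 at ZT9 (n = 10) and 92.5 ± 15.0 at ZT12 (n = 12). It was 72.6 ± 6.05 at ZT15, 63.6 ± 18.7 at ZT18 and 73.4 ± 9.00 at ZT21 (n = 5 each). The group means therefore stood high from ZT6 to ZT12 and low from ZT15 to ZT0, with ZT3 in between. At ZT3 the mean was 81.2 ± 25.3 CPM at 3 h (n = 5) and 93.9 ± 12.7 CPM at 27 h (n = 6). In bulk tissue, fewer cells of a type and less RNA per cell cannot be told apart. Of the libraries, 2 of 12 at ZT0 lay above the overall median of 83.1 CPM, as did 5 of 11 at ZT3, 10 of 12 at ZT6, 8 of 10 at ZT9 and 9 of 12 at ZT12. At ZT15, ZT18 and ZT21 the counts were 0, 1 and 1 of 5. The ranges of ZT0 (47.1 to 85.5 CPM) and ZT6 (63.1 to 116.9 CPM) overlapped.

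Values of the single libraries are given next for both days. At 0 h the 6 libraries held 47.1, 53.2, 60.4, 74.5, 83.3 and 85.5 CPM of miR-5099, and at 24 h they held 50.1, 55.0, 56.6, 58.1, 60.9 and 72.9 CPM. At 6 h the values were 63.1, 96.3, 108.2, 112.3, 112.8 and 116.9 CPM, and at 30 h they were 82.3, 90.3, 95.2, 95.8, 97.7 and 102.8 CPM. The lowest library at 30 h thus lay above the highest at 24 h, whereas on the first day 1 library at 6 h fell inside the range of 0 h. At 33 h the 6 libraries lay between 92.1 and 120.8 CPM, and at 18 h the 5 lay between 45.4 and 92.3 CPM. The 5 libraries at 15 h kept to 68.1 to 83.0 CPM, all below the lowest of 33 h. The day-to-day difference of miR-5099 over ZT0 to ZT12 was 0.03 ± 0.07 (log2, SE; first-day mean 85.4 CPM, second-day mean 88.7 CPM; edgeR adjusted p = 0.994).

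The rhythm was tested in edgeR's quasi-likelihood fit as the joint effect of a 24 h cosine and sine, with p-values adjusted over all hairpins tested. It called 1 of 400 hairpins at an adjusted p under 0.05 (0.25%), and 6 had an unadjusted p under 0.05 (1.5%). For miR-5099 the peak-to-trough ratio of the fitted curve was 0.68 ± 0.10 on the log2 scale (SE, 72 libraries), which is 1.597-fold, with the peak at ZT8.19 ± 0.505 h (edgeR adjusted p = 2.218e-06). The upper end of the 95% region of the ratio was 0.91, or 1.88-fold. The curve held 43.8% of the variance of log2 CPM, and a permutation test over libraries gave p = 1e-05, the smallest value that 100000 resamples can give, both over all libraries and within library runs. In the fit that also held library run the ratio was 0.69 and the edgeR adjusted p 1.391e-07. A raw count of 67 to 516 (median 169.5) stood behind each library's value.

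**Figure D1:**
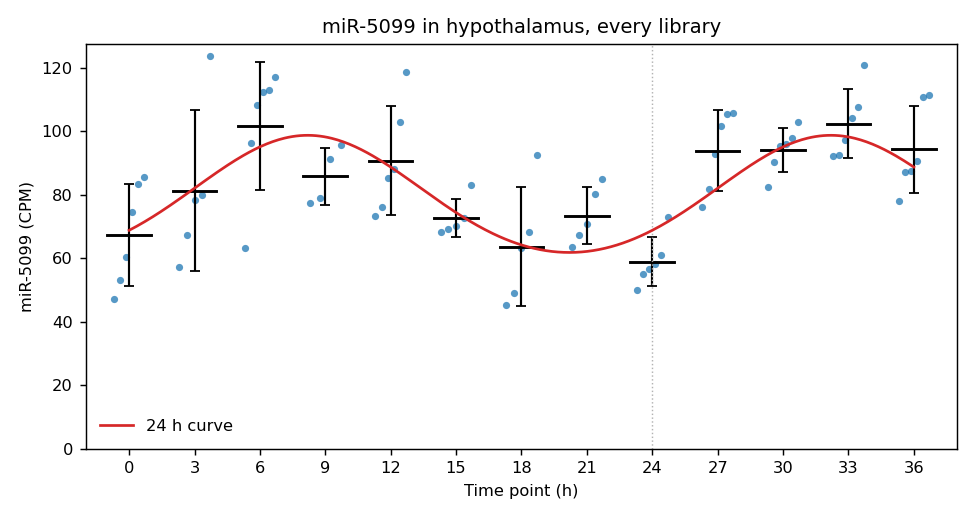
miR-5099 in every hypothalamus library (points; CPM on the vertical axis) at the 13 time points in h, with the mean and SD of each time point (black) and the fitted 24 h curve (red). Means lie at 58.9 CPM at 24 h and 102.4 CPM at 33 h, and the curve peaks at ZT8.19; the dotted line marks 24 h.

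The rhythm of miR-5099 was set against those of cortex and liver in 1 fit each, as a test of the difference. Animal codes recur between the tissues, and these fits held no term for animal. In cortex the ratio was 0.57 ± 0.08 with the peak at ZT8.36, and the difference from hypothalamus had an edgeR adjusted p of 0.9997 (unadjusted p = 0.792, a test within the edgeR model). In liver the ratio was 0.59 ± 0.08 with the peak at ZT6.23, and the difference had an edgeR adjusted p of 0.5929 (unadjusted p = 0.0874). A difference between tissues was thus not detected, which does not show that the curves are alike. Mean levels within each tissue's own scale were 83.5 CPM in hypothalamus, 82.2 CPM in cortex and 302.6 CPM in liver. On the scale common to all tissues they were 57.0 CPM in hypothalamus, 58.8 CPM in cortex and 773.3 CPM in liver.

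For most other hairpins the fit without run set a limit on the size of any 24 h rhythm. Limits with run in the model are not given here. The upper end of the 95% region lay under 1.5-fold for 295 of the 400 tested hairpins and under 2-fold for 382. The median ratio was 0.11, and the median upper end was 1.34-fold. Peaks spread over the day, with 109, 106, 93 and 92 hairpins peaking in successive windows of 6 h from ZT0. The limit tightened with abundance. It was under 1.5-fold for 27 of 83 hairpins with a mean under 10 CPM, for 98 of 123 from 10 to 100 CPM, for 86 of 101 from 100 to 1000 CPM and for 84 of 93 at 1000 CPM or more.

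**Figure D2:**
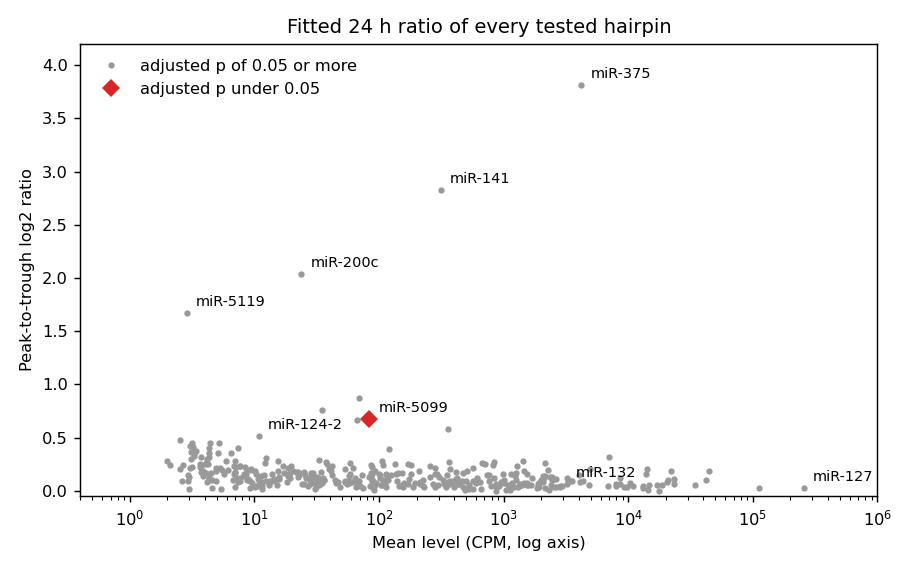
Peak-to-trough log2 ratio of the fitted 24 h curve (vertical axis) against mean level in CPM (log axis) for each of the 400 tested hairpins, with the 1 called hairpin as a red diamond. miR-375, miR-141 and miR-200c have the largest ratios, 3.81, 2.83 and 2.03, without passing the test.

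The hairpin with the next smallest p-value was miR-124-2 (chromosome 3, 17795662 to 17795770, in an exon of the noncoding host gene Mir124-2hg), a copy of the neuronal miR-124, and it did not pass. On the first day its means were 7.96 ± 1.62 CPM at 0 h (SD, n = 6), 8.38 ± 1.83 at 3 h (n = 5), 8.93 ± 3.24 at 6 h (n = 6), 12.1 ± 0.831 at 9 h (n = 4) and 14.5 ± 2.04 at 12 h (n = 6). On the second day they were 9.37 ± 2.79 at 24 h, 11.2 ± 3.20 at 27 h, 13.1 ± 2.45 at 30 h, 12.5 ± 3.96 at 33 h and 13.5 ± 1.76 at 36 h (n = 6 each). The 5 libraries at 15 h held 5.98, 6.34, 8.77, 9.03 and 12.9 CPM. The 12 libraries at ZT12 lay between 11.5 and 17.3 CPM, and 4 of those 5 lay below them all.

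Its fitted ratio was 0.52 ± 0.13, with the peak at ZT10.99 ± 1.09 h and an upper end of 1.80-fold (edgeR p = 8.875e-04, adjusted p = 0.1775). Leaving out 1 library turned miR-124-2 into a call. This was ZT21 replicate 3, which held 17.4 CPM against 7.36 to 10.2 CPM in the others of its group. Without it the ratio was 0.60 and the edgeR adjusted p 0.01739. Adding run to the model gave an edgeR adjusted p of 0.0784. The mean was 10.9 CPM, with raw counts of 8 to 66 per library. The 3 copies of miR-124 summed to 12.1 ± 3.68 CPM, with a ratio of 0.54 ± 0.13. miR-124-2 was 0.24 ± 0.10 higher on the log2 scale on the second day (edgeR adjusted p = 0.994), which did not pass.

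**Figure D3:**
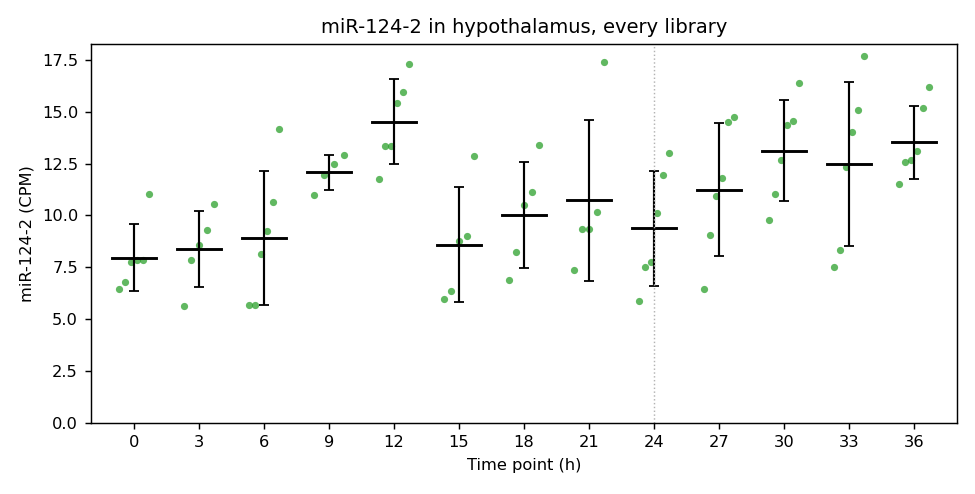
miR-124-2 in every hypothalamus library (points, CPM) by time point in h, with the mean and SD of each time point (black) and a dotted line at 24 h. The time point means run from 7.96 CPM at 0 h to 14.5 CPM at 12 h and from 9.37 CPM at 24 h to 13.5 CPM at 36 h. The SD bars of 12 h and 15 h do not overlap.

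Clock-linked miRNAs, those tied to the clock in earlier literature, gave no call in hypothalamus. Of the 35 hairpins of the list, 30 were tested, 0 passed in edgeR and 1, miR-124-2, had an unadjusted p under 0.05, beside the 1.5% over all tested hairpins. Their median ratio was 0.11, equal to that of all tested hairpins to 2 decimals, and 22 of the 30 had an upper end under 1.5-fold. The 5 that were too low to test were miR-194-1, miR-122, miR-103-1, miR-124-1 and miR-124-3, with 36 to 459 counts over the 72 libraries.

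miR-132, the activity-induced and light-induced miRNA, did not pass. Its ZT means lay between 3086 ± 382 CPM (SD, n = 5) at ZT21 and 3312 ± 741 CPM (n = 10) at ZT9, less than the SD of either group apart. The ratio was 0.06 ± 0.08 and the upper end 1.202-fold (edgeR p = 0.7188). miR-212, from the same transcript, ran from 1118 ± 73.9 CPM at ZT3 (n = 11) to 1265 ± 228 CPM at ZT0 (n = 12), with a ratio of 0.03 ± 0.06 and an upper end of 1.15-fold (edgeR p = 0.8677). With run in the model the ratios of miR-132 and miR-212 were 0.01 and 0.10, again without a call. The upper ends come from the fit without run and apply to the hypothalamus as a whole. miR-134, the other activity-regulated hairpin, had a ratio of 0.02 ± 0.06 with an upper end of 1.13-fold (edgeR p = 0.9604).

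miR-219a-2, the more abundant copy of miR-219a and a hairpin abundant in oligodendrocytes, varied more between libraries. It averaged 648.6 ± 91.0 CPM at ZT0 (SD, n = 12) and 976.9 ± 401 CPM at ZT15, where the 5 libraries spread from 494.7 to 1455 CPM. The spread at ZT15 covers the range of ZT0 (501.5 to 865.7 CPM). The ratio was 0.15 ± 0.13 and the upper end 1.39-fold (edgeR p = 0.5). The other copy, miR-219a-1, at 8.69 CPM, had a ratio of 0.10 ± 0.15 and an upper end of 1.39-fold (edgeR p = 0.7868). The other oligodendrocyte hairpin of high level, miR-338, had the same ratio as miR-219a-2, 0.15 ± 0.10, at 4004 CPM (edgeR p = 0.2836). The summed level of the 5 oligodendrocyte hairpins ran from 2959 to 6097 CPM at ZT18 and from 3473 to 7551 CPM at ZT15, and its part in the spread of miR-219a-2 was not tested.

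The other tested clock-linked hairpins did not pass either. miR-29a, at 14329.9 CPM, had the tightest limit of the list, a ratio of 0.01 ± 0.05 with an upper end of 1.10-fold (edgeR p = 0.9765). miR-29c, with the same seed family, had 0.11 ± 0.08 and 1.247-fold. The low copies miR-29b-1 (7.31 CPM) and miR-29b-2 (28.7 CPM) had 0.41 ± 0.18 and 0.13 ± 0.15, with upper ends of 1.80-fold and 1.402-fold. miR-142a, which is abundant in blood cells, had 0.06 ± 0.14 and 1.35-fold. miR-185 had 0.13 ± 0.09, miR-192 had 0.12 ± 0.09, miR-181d had 0.05 ± 0.05 and miR-191 had 0.08 ± 0.07. The widest limits belonged to the miR-183 cluster, where miR-183, miR-182 and miR-96 reached 2.61-fold, 2.399-fold and 2.703-fold, and all 3 were higher in the 2 libraries described below than in any other. The others, miR-378a, miR-24-1, miR-24-2, miR-30a, miR-16-1, miR-16-2, miR-194-2, miR-17, miR-27b, miR-219a-1, miR-34a, miR-155, miR-103-2 and miR-494, had upper ends from 1.18-fold (miR-378a) to 1.99-fold (miR-494).

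**Figure D4:**
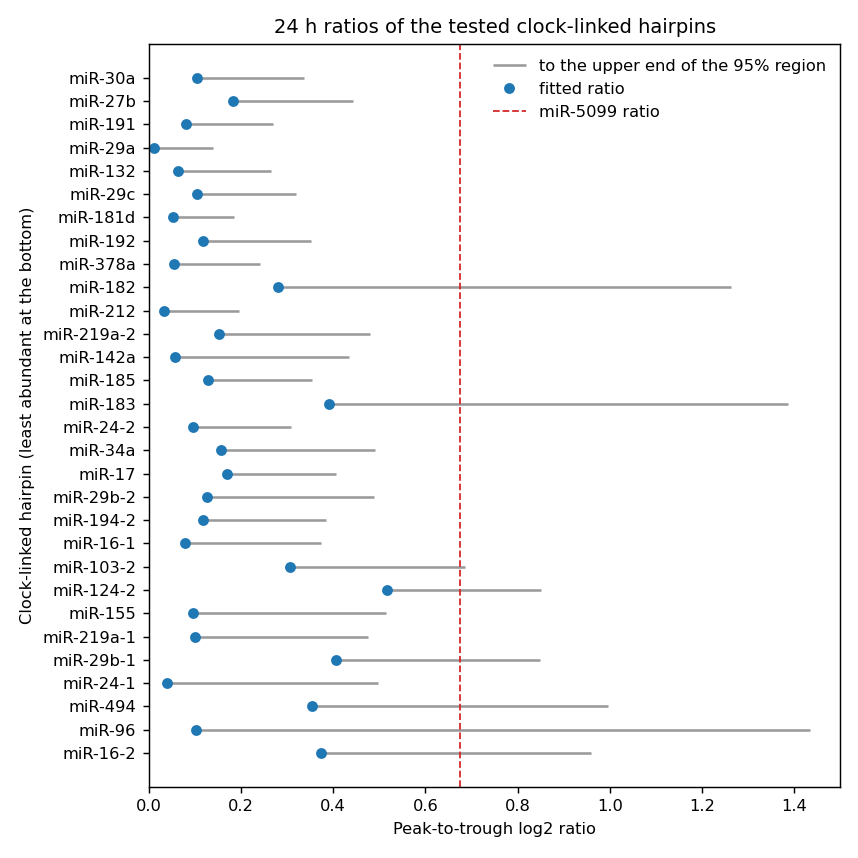
Fitted peak-to-trough log2 ratio (points) and the upper end of its 95% region (grey lines) for the 30 tested clock-linked hairpins, ordered by mean level with the most abundant at the top. The dashed line is the ratio of miR-5099, 0.68; the line of miR-132 ends at 0.27 and that of miR-96 at 1.43.

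Hairpins of the neuroendocrine list had 0 calls among 5 tested, beside 0.25% overall. miR-7a-1, in an intron of Hnrnpk (chromosome 13, 58392779 to 58392886), had a small ratio of 0.12 ± 0.05 with the peak at ZT21.7 and an upper end of 1.18-fold (edgeR p = 0.06295, adjusted p = 1). Its mean was 92.7 ± 7.70 CPM at ZT21 (SD, n = 5) and 82.5 ± 5.87 CPM at ZT6 (n = 12), and these groups overlapped. miR-7a-2 and miR-7b had ratios of 0.09 ± 0.10 and 0.04 ± 0.13.

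miR-375 (chromosome 1, 74900658 to 74900721, outside other annotated genes), known from pancreatic islets and the pituitary, had the largest ratio of all, and it rested on 2 libraries. ZT0 replicate 9, taken at 0 h, held 146416 CPM and ZT9 replicate 8, taken at 33 h, held 98309 CPM, whereas the other 70 libraries held 264 to 5954 CPM with a median of 611 CPM. ZT0 replicate 9 was in library run 9 and ZT9 replicate 8 in run 6, so they share no run. Group medians of miR-375 ran from 525.5 CPM at ZT18 to 766.2 CPM at ZT0, and the next highest was 636.8 CPM at ZT6.

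The miR-200 family, which marks epithelium and is abundant in the pituitary, was high in the same 2 libraries. miR-141 (chromosome 6, 124717914 to 124717985) held 10250 and 7275 CPM there against 5.06 to 291 CPM in the others. miR-200c held 671.9 and 603.6 CPM against 0.583 to 33.7 CPM. miR-200a, miR-200b and miR-429 were also above all other libraries in both, at 1500 and 1062 CPM, 1351 and 1016 CPM, and 1719 and 1252 CPM, against at most 171.4, 127.0 and 208.1 CPM. The summed level of the 5 family members was 15492 and 11209 CPM in these libraries, with group medians of 100.6 to 237.4 CPM, and 0 of the 5 were without counts. miR-182 and miR-183 of the miR-183 cluster were also higher there, at 10733 and 8266 CPM and at 798.1 and 692.0 CPM, and so were miR-7b (1062 and 1108 CPM against at most 508.4 CPM) and miR-7a-2 (326.3 and 278.0 CPM against at most 166.9 CPM). miR-143, a marker of mural cells, was not apart, with 16448 and 17087 CPM against a median of 15387 CPM.

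With all libraries miR-375 had a ratio of 3.81 ± 0.88 with the peak at ZT3.82 (edgeR p = 0.03111, adjusted p = 1) and miR-141 one of 2.83 ± 0.90 at ZT3.88 (edgeR p = 0.1236). With run in the model these ratios were 1.03 and 0.69, and that of miR-200c was 0.97 instead of 2.03. miR-200b and miR-205, the next largest at 10 CPM or more, had 0.87 ± 0.58 and 0.76 ± 0.44, and miR-205 also had its highest levels in these libraries, 464.0 and 270.0 CPM against at most 63.0 CPM. Leaving out either library turned miR-375 and miR-141 into calls, with peaks at different times. Without ZT0 replicate 9 the peak of miR-375 was at ZT8.11 (ratio 2.91, edgeR adjusted p = 0.006033), and without ZT9 replicate 8 it was at ZT23.3 (ratio 3.55, edgeR adjusted p = 7.155e-06). miR-141 and miR-200c were called with it in both cases. Without both libraries the ratio of miR-375 was 0.62 (edgeR adjusted p = 0.9988) and that of miR-141 was 0.05 (edgeR adjusted p = 0.9988), and miR-5099 was again the 1 called hairpin, with a ratio of 0.67 (edgeR adjusted p = 2.225e-06).

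**Figure D5:**
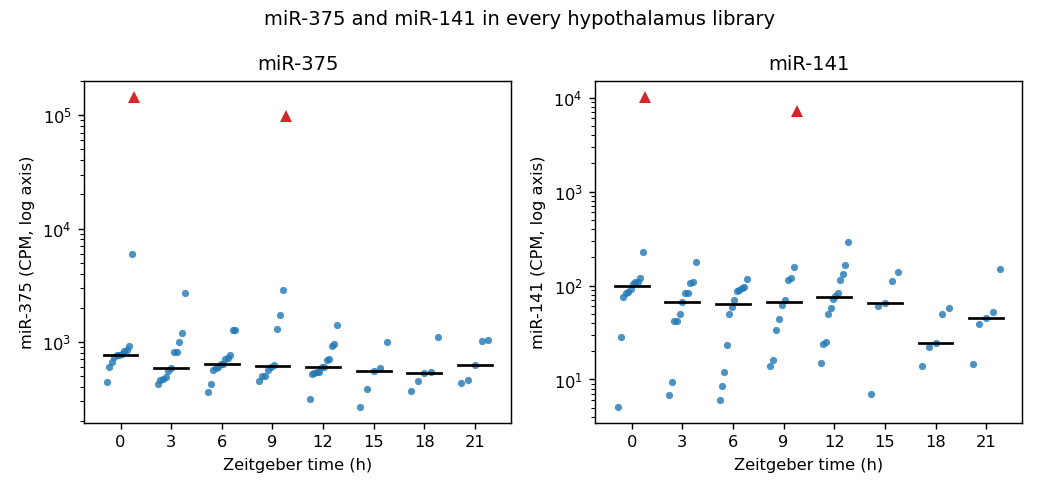
Levels of miR-375 (left) and miR-141 (right) in CPM on a log axis for each hypothalamus library by ZT in h, with group medians as black bars. The 2 red triangles are ZT0 replicate 9 and ZT9 replicate 8, at 146416 and 98309 CPM for miR-375, and the medians of the 8 groups stay between 525.5 and 766.2 CPM.

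The most abundant hairpins of the tissue did not pass the test. miR-127 (chromosome 12, 109592846 to 109592915) and miR-434 (109594506 to 109594599), which lie antisense to an exon of Rtl1 in the imprinted Dlk1-Dio3 region, took 25.7% ± 2.06 and 11.1% ± 1.62 of the counts (SD, n = 72). Their ratios were 0.02 ± 0.05 and 0.03 ± 0.07, with upper ends of 1.11-fold and 1.16-fold (edgeR p = 0.8906 and 0.9388). Of the next most abundant, miR-30a, miR-30d, miR-92b and miR-410 had ratios of 0.10 ± 0.09, 0.11 ± 0.07, 0.11 ± 0.08 and 0.06 ± 0.07. miR-22 had a ratio of 0.05 ± 0.04 and miR-125a, the largest of the 10 most abundant, 0.19 ± 0.10 with an upper end of 1.35-fold (edgeR p = 0.1533). Of the 49 Dlk1-Dio3 hairpins, 46 were tested, 0 passed and 42 had an upper end under 1.5-fold, with a median ratio of 0.08. Over all tested hairpins 1 of 400 passed (0.25%), 295 of 400 had an upper end under 1.5-fold and the median was 0.11, so 0 calls in lists of this size are near the overall share. The let-7 family (13 tested) and the miR-30 family (6 tested) also had 0 calls, with 12 and 6 members under 1.5-fold. Their most abundant members outside those already given, let-7g and let-7i, had ratios of 0.07 ± 0.05 each.

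Marker hairpins of other cells had 0 calls in lists of 3 to 13 tested members, beside 0.25% over all tested hairpins, a share at which such lists hold few calls or none. The choroid plexus hairpin miR-204, at 17593 CPM, had a ratio of 0.00 ± 0.05 and an upper end of 1.10-fold (edgeR p = 0.9993), and miR-34c had 0.20 ± 0.16. Immune (6 tested), erythroid (4), vessel and mural (3) and liver-enriched (3) hairpins had median ratios of 0.10, 0.23, 0.07 and 0.12, beside 0.11 over all tested hairpins. The summed level of the 4 erythroid hairpins ran from 453.8 to 2240 CPM per library within ZT6 alone, and miR-451a, the red cell miRNA, had a ratio of 0.27 ± 0.19 with an upper end of 1.69-fold. miR-144, from the same precursor transcript, had 0.28 ± 0.21. Of the immune hairpins, miR-342 had 0.14 ± 0.10 and miR-150 had 0.10 ± 0.18. miR-143 and miR-126a of vessels had 0.05 ± 0.13 and 0.07 ± 0.09, and miR-148a of the liver-enriched list had 0.05 ± 0.12. The neuronal list (13 of 16 tested) had 0 calls and a median of 0.11, and its most abundant member, miR-129-2, had 0.11 ± 0.09, followed by miR-153 with 0.13 ± 0.15. The 4 tested hairpins of the Htr2c intron had 0 calls and a median of 0.06, with miR-1298 at 0.00 ± 0.06 and miR-448 at 0.04 ± 0.05.

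The remaining hairpins with small p-values did not pass. miR-344c (chromosome 7, 61837311 to 61837402, in an intron of A230057D06Rik) averaged 17.6 ± 2.38 CPM at ZT18 (SD, n = 5) and 12.8 ± 2.23 CPM at ZT9 (n = 10). Its ratio was 0.28 ± 0.10, with the peak at ZT21.7 (edgeR p = 0.0397, adjusted p = 1). let-7f-2, in an intron of Huwe1, had 0.24 ± 0.10 (edgeR p = 0.07605), and its copy let-7f-1 had 0.16 ± 0.07 (edgeR p = 0.1084). miR-665 and miR-370, both of the Dlk1-Dio3 region, had 0.16 ± 0.07 and 0.12 ± 0.06 (edgeR p = 0.074 and 0.08777), with peaks at ZT7.73 and ZT8.61. miR-146a had 0.58 ± 0.27 (edgeR p = 0.119), and its level differed between library runs (edgeR adjusted p of run = 2.251e-28). With run in the model its ratio was 0.08 (edgeR p = 0.638). miR-100 had 0.32 ± 0.15 (edgeR p = 0.1107), and 0.11 with run in the model, and miR-493 of the Dlk1-Dio3 region had 0.22 ± 0.10 (edgeR p = 0.1064). At ZT0 the 12 libraries held from 139.3 to 820.2 CPM of miR-146a. miR-5119, in an intron of Cdk12 and below the level at which hairpins were otherwise named, had a ratio of 1.67 ± 0.47 at a mean of 2.86 CPM (edgeR p = 0.001857, adjusted p = 0.2475).

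Whether levels repeated on consecutive days was tested at ZT0 to ZT12. No hairpin passed in edgeR: 0 of 395 were higher on the second day (0%) and 0 lower (0%), and 4 had an unadjusted p under 0.05 (1.01%). DESeq2 gave 0 calls too. The 4 were miR-5119, miR-328, miR-124-2 and miR-322, named after their values were seen. Their differences, second minus first day, were -0.89 ± 0.34, -0.10 ± 0.04, 0.24 ± 0.10 and 0.13 ± 0.06 on the log2 scale (SE; 57 libraries). In CPM, miR-328 averaged 2939 on the first day and 2732 on the second.

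The rhythms of all hairpins were also compared with those of the other well-sampled tissues. Against cortex (78 libraries) 0 of 431 hairpins differed in edgeR (0%), and 13 had an unadjusted p under 0.05 (3.02%). DESeq2 also gave 0. Against liver (77 libraries) 4 of 441 differed (0.907%). Hypothalamus and liver shared only 1 library run, through ZT0 replicate 12, so apart from that library tissue and run cannot be told apart in the fit.

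One of the 4 was miR-150, a miRNA abundant in lymphocytes. In hypothalamus its ZT means lay between 1763 ± 739 CPM (SD, n = 12) at ZT0 and 2263 ± 893 CPM (n = 5) at ZT18, with a ratio of 0.10 ± 0.18. In liver it averaged 185.7 ± 58.7 CPM at ZT6 (n = 12) and 62.1 ± 18.1 CPM at ZT15 (n = 6), with a ratio of 1.33 ± 0.16 and the peak at ZT4.92 (edgeR adjusted p of the difference = 0.003449). miR-29b-1 peaked at ZT7.55 in hypothalamus and ZT7.60 in liver, with ratios of 0.41 ± 0.18 and 1.65 ± 0.19 (edgeR adjusted p = 0.003369), at means of 7.31 and 4.83 CPM. Its levels in hypothalamus ran from 5.61 ± 2.55 CPM at ZT21 (n = 5) to 8.67 ± 5.41 CPM at ZT9 (n = 10).

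The other two calls rested on few hypothalamus libraries. miR-122 (edgeR adjusted p = 0.003449) had a median of 1.83 CPM in hypothalamus and 65.9 CPM in ZT0 replicate 12, the library of the run shared with liver, and without that library the edgeR adjusted p was 0.6402. DESeq2 called it (adjusted p = 4.669e-24). miR-6978 (edgeR adjusted p = 0.003939) had no count in 70 of the 72 hypothalamus libraries, and both others belonged to ZT21. Without ZT21 replicate 4 or ZT21 replicate 5 its edgeR adjusted p was 0.234 or 0.2317, and DESeq2 gave 0.9818. Both hairpins were named after their values were seen.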

How the data were processed

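Small RNA was sequenced from hypothalamus and 3 other tissues. Per the labels' protocols, total RNA came from miRNeasy columns, and small RNA was enriched before Illumina libraries were made. The authors deposited whole-number counts per hairpin and library, without normalization. Both arms of a hairpin are added in a count. Tools listed in the submitters' processing notes are HTSeq 0.10.0 and STAR 2.7.3a, with GRCm38 as the build; trimming, the miRBase release and the handling of multiple matches are not given in the sources used here.

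Columns were mapped to samples by their labels. Counts were analysed with edgeR 4.0.16 in R 4.3.3 (TMM scaling, filterByExpr by ZT group with a smallest group of 5, quasi-likelihood F test, Benjamini-Hochberg adjustment over all hairpins tested, threshold 0.05). CPM values use TMM library sizes. The ratio is the peak-to-trough log2 difference of the fitted cosine and sine, its SE comes from the delta method, and its upper end is the largest ratio in the joint 95% region of both terms. Days were compared with ZT as a factor, and rhythms between tissues by the interaction of tissue with both terms. Scripts were tested on simulated data. DESeq2 1.42.0 and limma 3.58.1 were alternatives. Python 3.11.15 with matplotlib 3.10.9 drew the plots. Positions and sequences are RefSeq's for GRCm38.p6, and overlaps are with GENCODE vM21.

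Named were called hairpins, the 12 smallest p-values and 5 largest ratios with a mean of at least 10 CPM, the 10 most abundant, all tested clock-linked, activity-regulated and neuroendocrine hairpins and the 2 most abundant of each other list; miR-5119, miR-328, miR-322, miR-29b-1 in the liver comparison, miR-122, miR-6978 and markers of single libraries fall outside this rule and were picked with their values in view. The rhythm question, the lists and the groups were chosen with earlier results of these data known. No pair of libraries of 1 time point agreed within sampling noise (166 pairs, lowest chi-square per degree of freedom 13.6). Within hypothalamus the labels give each library its own animal code but say nothing of cages or litters, so p-values measure the spread between these libraries. Animal codes recur between tissues, and the comparisons with cortex and liver treated libraries of the same animal as independent.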

Additional observations from a re-analysis of the deposited data

Results flagged for a closer look

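Libraries that lay far from the others of their ZT group were looked for in 48 groups of 4 to 10 libraries, for 12 hairpins whose levels are given above, and 10 were found (20.8%). Chance alone gives about 1 in 20, and several of the 10 are the same library. The share is no test against chance, because miR-375, miR-141 and miR-200c were named for large ratios that rested partly on ZT9 replicate 8. ZT9 replicate 8 stood apart for miR-375 (98309 CPM against 2848 CPM in the next library), for miR-141 (7275 against 158.7 CPM) and for miR-200c (603.6 against 18.4 CPM). ZT0, ZT3, ZT6 and ZT12 have more than 10 libraries each and were not examined in this way.

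Other libraries stood apart for 1 hairpin or 2. ZT18 replicate 1 held 1111 CPM of miR-375 against 539.1 CPM in the next library. ZT21 replicate 2 held 150.8 CPM of miR-141 against 52.6 CPM, and its miR-127 was low, at 245520 CPM against 267231 CPM. ZT21 replicate 3 held 17.4 CPM of miR-124-2 against 10.2 CPM. ZT18 replicate 4 held 4392 CPM of miR-132 against 3214 CPM, ZT18 replicate 5 held 512.9 CPM of miR-146a against 269.6 CPM, and ZT9 replicate 2 held 67.8 CPM of miR-7a-1 against 80.3 CPM. The ratios of miR-132, miR-127, miR-146a and miR-7a-1 did not pass the rhythm test with these libraries in the fit.

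The rhythm of 4 hairpins differed between hypothalamus and liver by the test of the difference in edgeR: miR-29b-1 (adjusted p = 0.003369), miR-122 and miR-150 (adjusted p = 0.003449 each) and miR-6978 (adjusted p = 0.003939). When run was added to that model, the adjusted p of miR-122 was 0.5399 and that of miR-6978 was 0.1868, while miR-150 and miR-29b-1 were still called.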

How the results depend on the processing

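Of 17 alternatives to the 24 h test, 13 also gave 1 call, and miR-5099 was called in all 17, with ratios of 0.56 to 0.86 and edgeR, DESeq2 or limma adjusted p of 1.819e-08 to 0.0486; leaving out each of the 72 libraries kept it at 0.64 to 0.72. The count was 4 with 0 to 21 h alone (42 libraries; peak of miR-375 at ZT0.331), 5 with 15 to 36 h alone (45 libraries; peak of miR-375 at ZT8.69, and miR-5119 among the calls), 8 with ZT as a factor, and 1 to 5 when 1 library was left out. It differed from 1 without ZT0 replicate 9 (4), ZT9 replicate 8 (5) and ZT21 replicate 3 (2). The replicate block gave 60 calls, among them miR-124-2 (adjusted p = 0.004357), miR-146a, miR-100 and let-7f-2; the replicate block together with library run gave 1, miR-5099. The labels give no pairing by number: each library has its own animal code, and numbers ascend with library number in 8 of 8 ZT groups. Same-numbered libraries had a median correlation of 0.099, against -0.018 for other-numbered ones. Of the libraries, 14 of 72 correlated best with their own number. There were 199 same-numbered and 2029 other-numbered pairs, and the count expected without pairing was not worked out. Libraries of the same run had a median of 0.257. The replicate block left the counts of calls of the other comparisons as they were (0 between days, 0 against cortex, 4 against liver). Unadjusted p under 0.05 numbered 4 to 120 over the alternatives. The comparison between days and that with cortex gave 0 under each of their 7 alternatives and without each library tried (57 and 16). That with liver gave 2 with run as a term and 3 to 5 under the others, and 3 to 4 when 1 of 16 libraries was left out (3 without ZT0 replicate 12, ZT21 replicate 4 or ZT21 replicate 5). The fits without both miR-375-rich libraries, with runs 3 to 10 alone, with block and run together, and without ZT0 replicate 12 in the tissue comparisons were chosen after seeing the data. Depth limits the low hairpins: under 10 CPM the upper end lay under 1.5-fold for 27 of 83, against 84 of 93 at 1000 CPM or more.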
